A study of Homo sapiens with 2 samples.

Results

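BID, BAX, CFLAR, CASP6 and CASP9 are 5 genes of the apoptosis machinery whose messenger RNAs were read by 9 named probes, of 58921 non-control probes on the array. They are 5 of the 1741 genes named in the rows read of the study's lists of higher and lower mRNAs, and they were chosen by gene symbol from those lists. The lists rest on the ratio of LBH589 to DMSO on these same arrays, so the differences below come from the contrast that chose the probes and are a description. Gene expression was measured in the SK-NEP-1 cell line on 2 arrays, 1 with RNA of cells given 100 nM LBH589 and 1 with RNA of control cells given the same volume of DMSO, the solvent, for 24 h. LBH589 (panobinostat) blocks histone deacetylases, the enzymes that take acetyl groups off histones. SK-NEP-1 is labelled as a human Wilms tumor line, and it is 1 established line that later work places with Ewing sarcoma. Each condition has 1 array, so there is no spread between cultures and no test between the conditions, and the culture, the RNA preparation and the labeling cannot be told apart from the treatment.

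Apoptosis runs along an extrinsic and an intrinsic path. At the cell surface, ligand-bound death receptors recruit caspase-8, and CFLAR (c-FLIP) holds that step back. Active caspase-8 cuts BID, whose fragment turns on BAX at the mitochondrion; the pore that BAX forms releases cytochrome c, caspase-9 is activated on the apoptosome, and executioner caspases such as CASP6 then cut cellular proteins. BID, BAX, CASP6 and full-length CASP9 thus promote death, while CFLAR restrains it.

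The label of the cells could not be checked from these arrays, since probes of marker genes carry names here only where they were listed as changed. Of 11 Ewing sarcoma markers, 3 had a named probe, and all were listed as lower, so that their brightness in the control cells is no check of the cell type: NKX2-2, a homeobox factor typical of that tumor, had a processed signal of 290.0, and CCND1, the cyclin that starts the passage from G1 to S, had one of 3992. The LOXHD1 probes, of a gene used as another marker of that tumor, had signals of 134 and 185. None of the 10 Wilms tumor and kidney progenitor markers had a named probe, so their levels were not analysed here. All 4 marker probes were lower after LBH589, NKX2-2 by at least 11.5-fold and CCND1 by 5.02-fold, and their part in the differences of the apoptosis genes was not tested. The arrays read RNA of whole cultures, in which fewer cells with a transcript and less of it per cell cannot be told apart.

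The probes are oligonucleotides of 60 bases, each placed on the array at 1 spot. Their sequences come from the lists of changed mRNAs and were not placed on transcripts here. The 3 BID probes are printed whole because they gave different sizes of change, and they share no run longer than 7 bases. The CFLAR isoform 1 probe is whole as well, and of the others the first 30 bases are printed. Capitals in the CASP6 pair mark the longest run of bases the probes have in common, 10 bases at positions 8 to 17 of the alpha probe and 1 to 10 of the beta probe, counted from the 5′ end; the bases that follow it differ. All are written 5′ to 3′.
BID isoform 1: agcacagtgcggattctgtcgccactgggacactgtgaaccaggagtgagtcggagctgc
BID isoform 2: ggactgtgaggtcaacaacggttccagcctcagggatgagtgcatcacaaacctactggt
BID isoform 3: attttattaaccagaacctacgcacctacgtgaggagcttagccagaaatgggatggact
BAX isoform beta: tggtctataatgcgttttccttacgtgtct
CFLAR isoform 1: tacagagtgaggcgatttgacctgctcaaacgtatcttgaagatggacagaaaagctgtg
CFLAR isoform 2: cctgatctgaaaattcttggaaattgttcc
CASP6 isoform alpha: cagggggCACCCGGCAGgtggggaagaaaa
CASP6 isoform beta: CACCCGGCAGtgtcaactgttagccacgca
CASP9 isoform beta: gtgacgtgagcgggcaggctctggatctcg

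The probes of a gene do not have the same reach. According to the annotation of the array, the BID isoform 1 probe matches 1 transcript, the isoform 2 probe 3 and the isoform 3 probe 7, so the last has the widest reach and the first reads a single form. The CFLAR isoform 1 probe matches 4 transcripts, and the probes of CFLAR isoform 2, BAX beta, CASP6 alpha, CASP6 beta and CASP9 beta match 1 each. The share of G and C ranged from 36.7% in the CFLAR isoform 2 probe to 63.3% in the CASP9 beta probe. Brightness depends on the probe, so signals are compared between the arrays for each probe and never between probes.

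After LBH589, 8 of the 9 probes were at least 2-fold lower and 1, CASP9 beta, was at least 2-fold higher, with a median difference of -3.06 on the log2 scale. For comparison, 41574 probes of any gene were well above background on the DMSO array, the LBH589 array or both; of these 10.2% were at least 2-fold lower and 12.3% at least 2-fold higher, and the median difference was -0.014. Differences are log2 of the processed signal, LBH589 minus DMSO, after each array was set against its own 75th percentile. That percentile was 188.6 for the control and 108.4 for the treated cells, a ratio of 1.74, so a fold without scaling is larger than the fold given here where the probe was lower, and smaller where it was higher. Since the study listed these probes for their change, nothing is read from the distance to the background. Among the measured differences that of BAX beta was nearest to no change, and that of CASP9 beta is a bound of similar size; probes of the same genes outside the listed rows carry no name here and were not analysed.

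**Figure D1:**
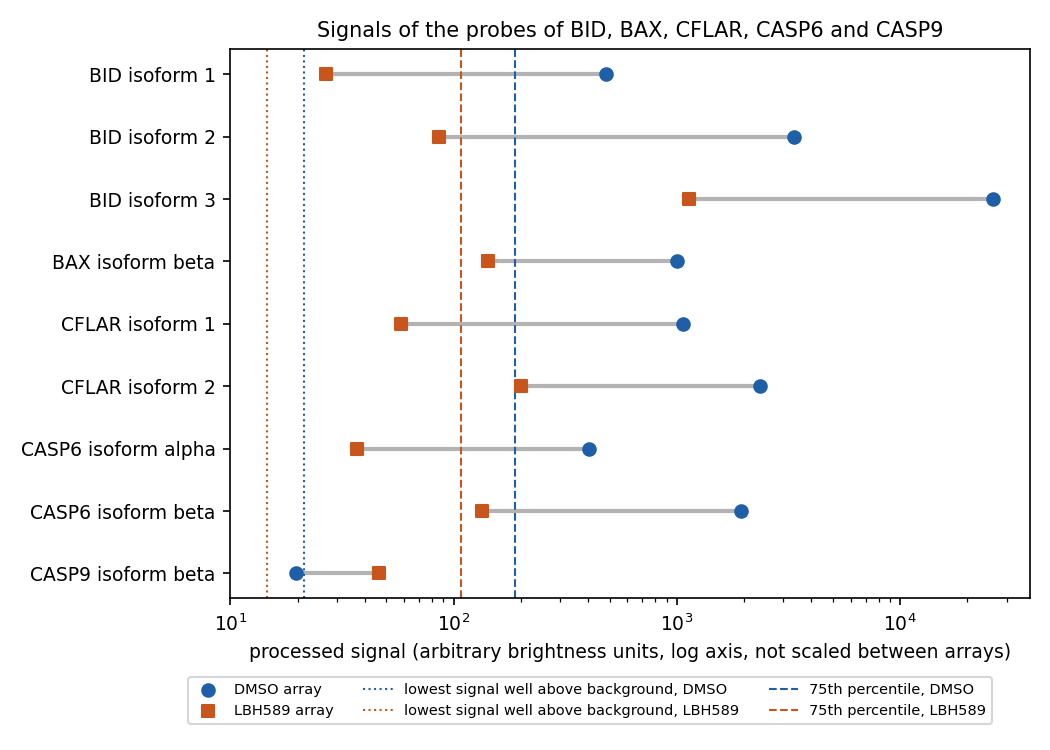
Processed signal of each probe (log axis, arbitrary brightness units, not scaled between arrays) on the DMSO array (circles) and the LBH589 array (squares), 1 spot each; dotted lines give, for each array, the dimmest signal that is well above background, and dashed lines the 75th percentile. The 8 probes of BID, BAX, CFLAR and CASP6 sit further left on the LBH589 array, and the CASP9 beta probe starts below the dotted line of the DMSO array.

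BID, the protein that carries the death receptor signal to the mitochondrion, was lower by all 3 of its probes. The gene lies on the minus strand of chromosome 22 (hg19, chr22:18216906-18257261), and the isoform 1 transcript, NM_197966, begins at 18256808, downstream of the start of the other forms. The isoform 2 probe (NM_001196), which stands for the usual full-length protein, had a processed signal of 3362 in the control cells and 86.3 after treatment. It went from well above the 75th percentile of the control array to just below that of the treated array. This is a difference of -4.49 ± 0.21 (measurement error of the spots, 1 array per condition), or 22.4-fold lower, and the probe ranks 45 from the lowest of the 41574.

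The broadest BID probe, that of isoform 3 (NM_197967), had a signal of 26160 in control and 1134 in treated cells. It remained above the 75th percentile on both arrays. Its difference was -3.73 ± 0.20, or 13.3-fold lower. The isoform 1 probe had signals of 481.7 and 26.9 and was 10.3-fold lower, with a difference of -3.36 ± 0.26. On the LBH589 array that last signal was well above the local background but under the mean of 3 of the 60 negative control probes, so its size is the least secure of the 3.

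The size of the difference varied among the BID probes. Isoforms 1 and 2 differed by 1.12 on the log2 scale, 3.36 times their combined measurement error of 0.33, and isoforms 2 and 3 by 0.76, 2.61 times theirs. Isoforms 1 and 3 differed by 0.37, which is about the size of the combined error of 0.33. With normexp, a background correction that adds an offset of 50, followed by quantile normalization, isoforms 1 and 3 parted by 4.57 times their combined error and isoforms 2 and 3 by 0.28, which is within the combined error of 0.29. Scaling by a constant and the floor of 5 cannot change these gaps. Under the other alternatives the gap between isoforms 1 and 2 was 3.13 times its error with quantile normalization, 5.33 times with normexp and 3.06 times in the deposited table, and there isoforms 1 and 3 differed by 0.16, or 0.50 times their error. These errors cover the spots of 1 array per condition and leave out differences between cultures, and the transcripts read by the 3 probes overlap.

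BAX, the pore-forming partner downstream of BID, was read by the probe of its isoform beta (NM_004324), a splice form with another carboxyl end than the main form alpha. The gene lies on the plus strand of chromosome 19 (hg19, chr19:49458117-49464519). Its signal of 1002 in control cells became 143 in treated cells, above the 75th percentile in both conditions. The difference was -2.01 ± 0.21, or 4.02-fold lower, the smallest among the 8 probes that were lower. The main form of BAX has no probe with a name here and was not analysed, so the value stands for the beta transcript alone.

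CFLAR, the inhibitor of caspase-8 activation, was lower by both of its probes. The gene lies on the plus strand of chromosome 2 (hg19, chr2:201980877-202037411). The isoform 1 probe (NM_003879), for the long form of c-FLIP, had a signal of 1065 in control and 58.4 in treated cells. The isoform 2 probe (NM_001127184), whose transcript ends early at 202006323 and encodes a short form, had signals of 2367 and 199. The isoform 1 probe was 10.5-fold lower, with a difference of -3.39 ± 0.22, and since it matches 4 transcripts the value is not that of the long form alone. The isoform 2 probe was 6.82-fold lower, with -2.77 ± 0.21. They differed by 0.62, which is 2.04 times their combined error of 0.30. With normexp they differed by 0.16, for which no error was computed anew.

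CASP6, an executioner caspase known for cutting nuclear lamins, was also lower by both probes. The gene lies on the minus strand of chromosome 4 (hg19, chr4:110609785-110624629). The alpha probe (NM_001226), for the full-length enzyme, gave 403.3 in control and 36.7 in treated cells, a difference of -2.66 ± 0.24 or 6.31-fold lower. The beta probe (NM_032992), for a shorter splice form, had signals of 1938 and 133 and was 8.35-fold lower, with a difference of -3.06 ± 0.21. The gap between them, 0.40, was 1.27 times the combined error of 0.32. It was 0.97 with normexp and 0.30 in the deposited table. These are 3.04 and 0.95 times that same error, which was not computed anew for either. The size of the gap between the CASP6 forms thus depended on the processing.

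CASP9 was the exception. Its probe reads isoform beta (NM_032996), a short splice form that lacks part of the protease and is known to hold back the full-length caspase-9, so the 1 probe that was higher does not stand for the active initiator enzyme. The gene lies on the minus strand of chromosome 1 (hg19, chr1:15818769-15851285). Control cells gave a signal of 19.6, which is not well above background, and treated cells gave 46.3. On the DMSO array 8 of the 60 negative control probes were brighter, and on the LBH589 array none was. The transcript was therefore at least 3.78-fold higher after LBH589, counted from 21.3, the dimmest signal that passed as well above background in the control. Taken at its own dim signal the ratio was 4.12-fold. Without scaling the transcript was at least 2.17-fold higher, and 2.37-fold at its own signal. Only the treated array measured this transcript above background, and its bound lies on a weak signal: the highest mean of a negative control probe there was 32.6. With normexp the difference fell from 1.92 to 0.72, under the 2-fold threshold. The full-length form of CASP9 has no probe with a name here and was not analysed.

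**Figure D2:**
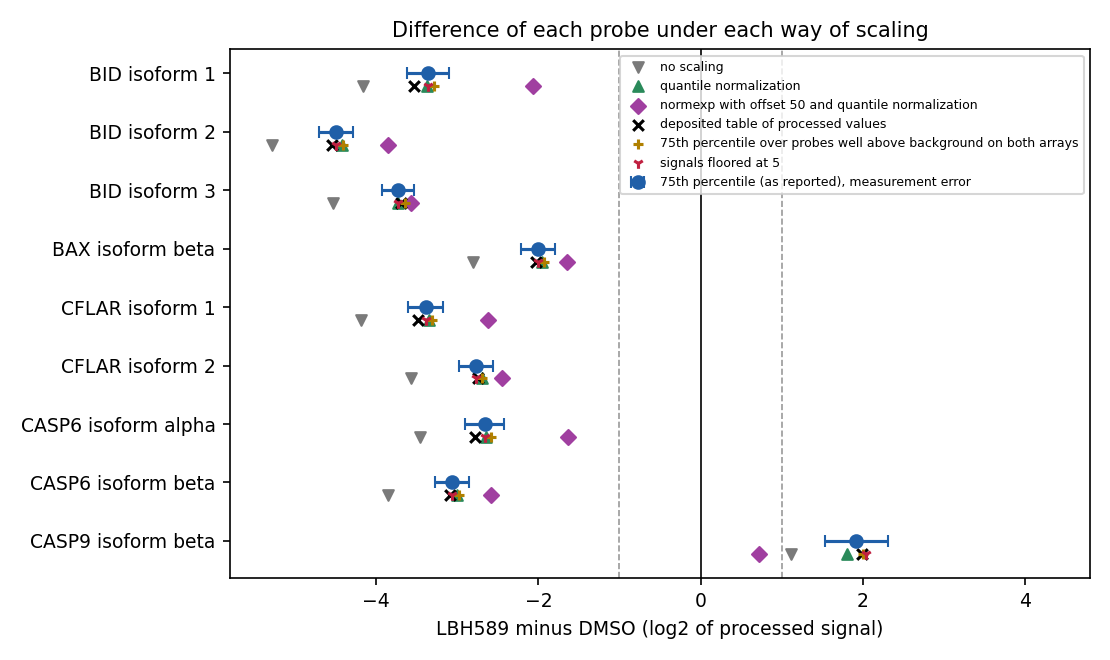
Difference of each probe on the log2 scale, LBH589 minus DMSO (circles, bars give the measurement error of the spots of 1 array per condition), with the same difference under 6 alternatives drawn beneath it; the dashed lines are 2-fold and CASP9 beta is a bound as reported. Every alternative kept the 8 lower probes beyond 2-fold, and CASP9 beta passed inside it, to 0.72, with normexp background correction.

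The size of each difference depended on the scaling, and no alternative that was run turned the direction of any of the 9 probes. Without scaling the 8 lower probes were lower by more, CASP6 beta by 14.5-fold and BID isoform 2 by 39.0-fold, while the median of all probes well above background on both arrays moved from -0.035 to -0.834. With normexp they were lower by less, BID isoform 1 by 4.20-fold, CASP6 alpha by 3.08-fold, CFLAR isoform 1 by 6.13-fold and BID isoform 2 by 14.4-fold. Over all probes the counts at 2-fold changed without scaling from 4252 lower and 5094 higher to 16249 lower and 1802 higher. In the deposited table of processed values BID isoform 2 differed by -4.55 and BAX beta by -2.03, and CASP9 beta by 1.99. As a measure of what the array repeats within itself, 20 probes were placed on up to 10 spots, and their differences had a median SD between spots of 0.076, with the widest at 0.516.

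The pro-death members were then set against the anti-death member. BID, BAX and CASP6, counted by gene as promoting death, were lower by 4.02-fold to 22.4-fold over 6 probes. Splice forms such as CASP6 beta were not set apart in this range, and their own roles were not tested. CFLAR, which restrains death, was lower by 6.82-fold and 10.5-fold. The ranges overlapped. All of these probes were named in the list of lower mRNAs, so their shared direction was fixed by that choice. CFLAR is also the only anti-death gene here, so nothing about the opposite roles is read from these values. CASP9 beta, listed under the pro-death gene but known as a restraining form, lay on the other side.

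**Figure D3:**
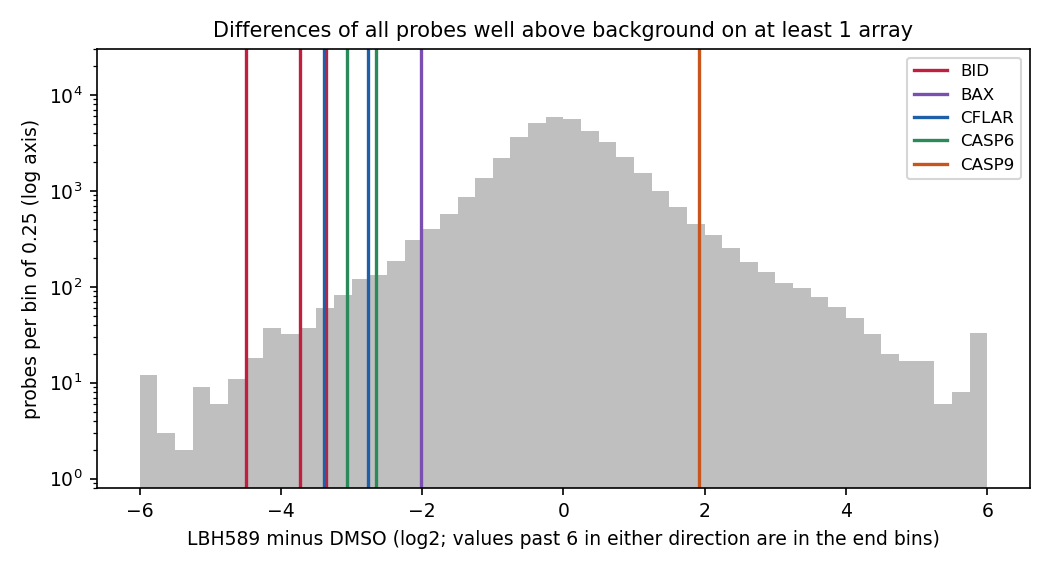
Number of probes (log axis) by difference on the log2 scale, LBH589 minus DMSO, in bins of 0.25, for the 41574 probes counted, with the 9 probes drawn as lines coloured by gene. The lines of BID isoform 1 and CFLAR isoform 1 nearly coincide at -3.36 and -3.39; BAX beta at -2.01 is the nearest of the lower probes to 0, and CASP9 beta lies at 1.92.

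Other genes of the same machinery were read where the listed rows name them. Of 39 genes counted as pro-death 11 had a named probe, and of their 15 probes 11 were at least 2-fold lower, 3 were at least 2-fold higher and 1, CASP8 isoform E, had only a lower bound short of 2-fold, with a median of -2.57. The 3 higher probes were those of BIK, BCL2L11 and CASP9 beta, the last counted here by its gene although the short form is known to restrain death. Without scaling, in the deposited table, with signals floored at 5 or with no filter on dim probes, 12 were at least 2-fold lower. Of 23 genes counted as anti-death 2 had one, CFLAR and AVEN, and all 3 of their probes were lower, with a median of -2.77. Without BID, BAX, CFLAR, CASP6 and CASP9, 5 of 8 pro-death probes were lower, 2 were higher and CASP8 isoform E was bounded as above, and 1 anti-death probe was lower. Over all 41574 probes counted, 10.2% were at least 2-fold lower and 12.3% at least 2-fold higher. The listed rows used here hold 952 lower and 1002 higher mRNA probes. Probes were listed for their change, so unchanged genes of either kind are missing from these counts. No lean of the pathway to either side is read from them. BCL2, BCL2L1, MCL1, XIAP and the other anti-death genes without a named probe were not analysed here.

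Among the BH3-only proteins, the relatives of BID that turn on or free BAX, the probes did not move one way. BIK, a BH3-only protein of the endoplasmic reticulum, had a signal of 116 in control and 1072 in treated cells. It was 16.0-fold higher, opposite to BID, and 9.23-fold higher without scaling and 9.10-fold with normexp. BCL2L11 isoform 6, a form of BIM whose probe matches 5 transcripts, was not well above background in control cells, at 16.2, and gave 41.8 after treatment. It was at least 3.41-fold higher, and like CASP9 beta it was measured above background in the treated cells only. Without scaling it was at least 1.96-fold higher, and 2.58-fold at its own dim signal, and with normexp the value of 1.49-fold was short of 2-fold.

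Of the death receptors, which act above CFLAR and BID, all 4 probes were lower. FAS, the receptor of FAS ligand, gave 538.9 with its isoform 1 probe in control cells and 7.13 in treated cells. That probe matches 3 transcripts, and its second signal was not well above background. Counted from 14.5, the dimmest signal that passed on that array, it was at least 21.3-fold lower. With the FAS isoform 3 probe the signals were 383.4 and 37.2, or 5.93-fold lower. TNFRSF1A, a receptor of tumor necrosis factor, had signals of 337.2 and 12.9, the second not well above background, and was at least 13.3-fold lower. So the FAS isoform 1 and the TNFRSF1A probe were measured above background in the control cells only. TNFRSF10A, a receptor of TRAIL, was 4.39-fold lower, from 1125 to 147. With normexp these probes stayed lower but by less, FAS isoform 1 by 6.10-fold, FAS isoform 3 by 3.06-fold and TNFRSF1A by 3.51-fold. In the deposited table FAS isoform 1 was 54.7-fold lower, a ratio over its dim treated signal and not a measured size. On the LBH589 array 10 of the 60 negative control probes were brighter than that signal. CASP8 isoform E, of the caspase these receptors recruit, gave 41.4 and 3.09. The second signal was not well above background, so the probe was at least 1.64-fold lower. All 60 negative control probes were brighter than that second signal, and 4 were brighter than the first on the DMSO array. The ratio of 7.70-fold at its own dim signal is therefore not a measured size.

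Below the receptors, DAPK2, a death-associated kinase, was 4.97-fold lower, from 462.9 to 53.6. AVEN, an inhibitor that binds the apoptosome scaffold, was the other anti-death gene with a named probe, and it was 5.17-fold lower, from 1104 to 123. With normexp the differences were -1.63 for DAPK2 and -1.92 for AVEN. The kinase and this inhibitor of caspase-9 activation, both named in the list of lower mRNAs, lay on the same side as BID, BAX, CFLAR and CASP6.

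DFFA isoform 2 lay on the opposite side. Full-length DFFA is both the inhibitor and the chaperone of the nuclease that caspases release to cut DNA, and the gene was placed on neither list; isoform 2 is a short form known to keep the inhibitor role. It gave 2248 in control and 10182 in treated cells, or 7.88-fold higher, and 4.53-fold higher without scaling. The inflammatory caspases, which serve cytokine release and pyroptosis and are on neither list, were lower. CASP4 gamma was 7.58-fold lower, CASP4 alpha 8.24-fold and CASP5 5.42-fold, values near those of CASP6, and with normexp 4.97-fold, 3.78-fold and 2.45-fold lower. The CASP4 gamma probe matches 2 transcripts and the CASP5 probe 4.

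**Figure D4:**
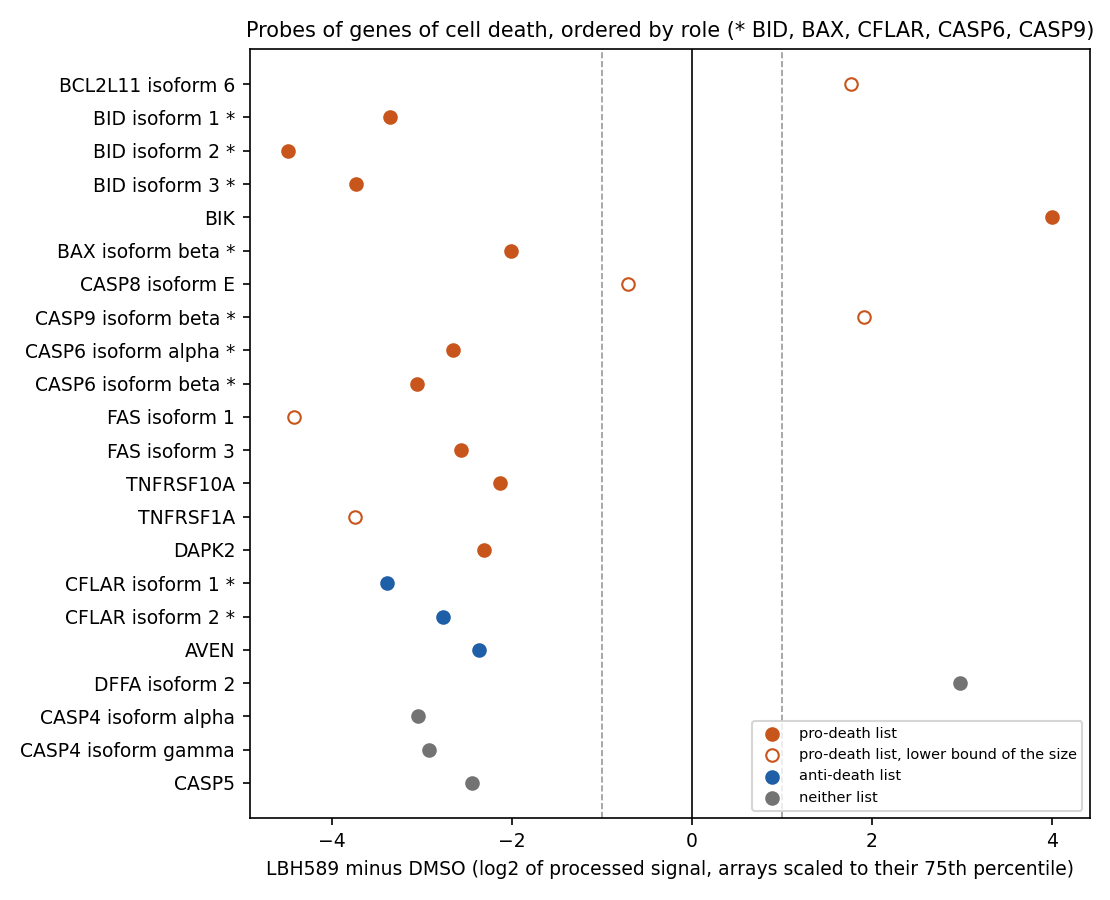
Difference on the log2 scale, LBH589 minus DMSO, of each named probe of a gene of cell death, ordered by role from BH3-only proteins to inflammatory caspases and coloured by list; open circles are lower bounds of the size, dashed lines are 2-fold, and stars mark BID, BAX, CFLAR, CASP6 and CASP9. BIK and, at 2.98, DFFA isoform 2 lie furthest to the right, and pro-death and anti-death probes both fill the left side.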

How the data were processed

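Cy3-labelled RNA of 2 SK-NEP-1 samples was hybridised to Arraystar Human LncRNA arrays. For each array the authors deposited the Agilent Feature Extraction output, in which every spot has an intensity, its error and flags of 0 or 1 given as a score column; the file header names version 11.0.1.1 and the submitters' processing notes 10.7.3.1. The authors also deposited a table of log2 values for 41891 probes, with a floor near 5 before the logarithm and medians of 6.27 (DMSO) and 6.26 (LBH589); its scaling is not given in the sources used here, and its ranks follow the scanner values.

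Control spots and 62 of 59145 other spots, flagged as non-uniform or as outliers, were left out. The log2 processed signals of a probe's spots were averaged and set against the array's 75th percentile. Of the 58921 probes, 66.0% (DMSO) and 63.3% (LBH589) were well above background, and none was saturated. Where 1 array was not, the dim value was raised to that array's dimmest signal that passed (21.3 for DMSO, 14.5 for LBH589) unless it was already brighter, which gives "at least" values. The median measurement error was 0.154 and 0.158 on the log2 scale. Only 1 array per condition limits the precision, and no p-value was computed. The 2 arrays share 1 slide and 1 scan.

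Gene names, transcripts, hg19 positions (counted from 1) and probe sequences were joined by probe name from the study's lists of changed probes, of which only some rows were used here; their columns of fold changes were not used. The genes named include BID, BAX, CFLAR, CASP6 and CASP9. They also include the genes of the pro-death, anti-death and marker lists that had a listed probe and whose values are reported here. These genes and lists were chosen with earlier results of these data known. Values of some genes are not reported here and were left out of the counts of the lists. The calculation, with Python 3.11.15, numpy 2.4.6 and pandas 2.3.3, was tested on simulated data. There every probe was set as well above background, so the raising of dim signals was not tested. Alternatives were no scaling, quantile normalization alone or after normexp (offset 50, limma 3.58.1), the percentile taken over probes that passed on both arrays, the deposited table, a floor of 5, other filters on dim probes, and 1 value per gene.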

Additional observations from a re-analysis of the deposited data

How the results depend on the processing

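The 8 probes of BID, BAX, CFLAR and CASP6 were at least 2-fold lower under every alternative run, and no direction was reversed among the 9 probes; 37 of their values moved by less than the measurement error and 17 by more, the latter all without scaling or with normexp. Without scaling 16249 probes were lower and 1802 higher over the whole array. With normexp, 2270 were lower and 2474 higher, 0 of the 9 probes were higher, since CASP9 beta came to 0.72, and 1 of the pro-death probes, BIK, was higher. Among probes that were above background in both conditions, where CASP9 beta, BCL2L11, FAS isoform 1, TNFRSF1A and CASP8 isoform E drop out, 0 of the 9 and 1 of the pro-death probes were higher and 9 of the pro-death probes were lower. With no filter on dim probes 6560 were lower and 9256 higher. With 1 value per gene, 7 of the pro-death genes were lower. The anti-death probes were lower under every alternative. CASP9 beta and BCL2L11 isoform 6 are limited by their own dim signals in control cells, and BID isoform 1 and CASP5 by theirs in treated cells. No paired analysis was possible because each condition has 1 array.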

Other observations

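Non-coding transcripts at the genes of the death lists were read as well, and this set was chosen after its values were seen. ENST00000424487, annotated as natural antisense to DFFA, gave 165 in control and 477.3 in treated cells, 5.03-fold higher, on the same side as DFFA. The non-coding FAS transcript NR_028033 was 4.31-fold lower, from 289.6 to 38.6, on the same side as the coding FAS probes, with which it shares exons. LOC389641, bidirectional with TNFRSF10A, was 3.66-fold lower, from 1168 to 184. SMA4, annotated as intronic antisense to NAIP, was 3.94-fold lower, from 4018 to 587, and NAIP itself has no named probe here. By the annotation the probes of NR_028033 and LOC389641 match 2 transcripts each and that of SMA4 5. Their values are therefore not those of the named transcripts alone.

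The gene ontology annotation beside the listed rows gives a wider count. The term apoptotic process stood in 50 of the 952 rows of lower probes used here, or 5.25%, and in 31 of the 1002 rows of higher probes, or 3.09%. Positive regulation of that process stood in 13 of the lower and 10 of the higher rows, and negative regulation in 13 and 12. Annotations were shortened in 47 and 32 of these rows, so the counts are low by an unknown number, and no test was made of them.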
